A study of Mus musculus with 12 samples.

Results

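The 10 genes described here build and join the antigen receptor genes of lymphocytes: the recombinase pair Rag1 and Rag2, the terminal transferase Dntt, and the end-joining factors Xrcc5, Xrcc6, Xrcc4, Lig4, Prkdc, Dclre1c and Nhej1. They were chosen by symbol from an expression table of 13016 mouse genes, and all 10 were in it. The table covered 12 libraries in 3 groups of 4, each library made from 100 sorted early thymic progenitors, the first T-lineage cells of the thymus, of C57BL/6 strain. Control cells carried loxP-flanked alleles of Ezh2 and Runx1 on both chromosomes (Ezh2 fl/fl Runx1 fl/fl) and no Cre. The dKO group carried the same alleles with Rag1Cre, a Cre recombinase driver named for Rag1, a gene of early lymphoid cells. The dKO_Flt3ITD group had in addition 1 allele of the Flt3 receptor with an internal tandem duplication (Flt3 ITD/+), an activating change. No treatment was named, and ages were not given in the labels. The control group lacks the Cre as well as the deletions, so an effect of the Cre allele and of the deletions cannot be told apart. How the Rag1Cre allele is built was not given in the sources used here, so reads from it and from the intact Rag1 gene cannot be told apart. The labels do not say whether replicate libraries came from separate mice, so p-values measure the spread between these libraries, which may be partly technical.

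V(D)J recombination assembles antigen receptor genes from separate V, D and J segments. The RAG1 and RAG2 proteins together bind recombination signals and cut the DNA beside them, leaving hairpin ends on the coding side. Ku70 (Xrcc6) and Ku80 (Xrcc5) form a ring that holds the ends, DNA-PKcs (Prkdc) activates Artemis (Dclre1c) to open the hairpins, and XRCC4, DNA ligase IV (Lig4) and XLF (Nhej1) seal the joint. Terminal transferase, the product of Dntt, adds untemplated nucleotides before sealing. Dntt is already transcribed in multipotent lymphoid progenitors, while T-cell receptor recombination in the thymus mostly follows the early progenitor stage.

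Levels are RPKM, in which each gene's reads are divided by the length of its transcript and by the size of the library. Genes are therefore compared per length. The cDNA was amplified from few cells, so ratios and orders of levels between genes may be partly technical. Differences are between mean values of log2(RPKM + 1), a scale on which low genes change by less than their fold. They were tested with limma over the 10690 genes that reached 1 RPKM in 4 or more libraries, and a gene was called at a Benjamini-Hochberg adjusted p under 0.05. The reads behind the table came to between 13623436 and 33985972 per library. Of the early progenitor markers, Kit, Cd34 and Ptprc were above 38 RPKM in all 12 libraries, while Il7r ran from 0.0883 to 39.7 RPKM and Ccr9 was at 0 in 4 of the 8 mutant libraries. Of the later thymocyte markers, Cd3g and Cd8b1 were at or under 5.05 and 0.227 RPKM, while Il2ra reached 54.9, Ptcra 22.5 and Cd5 15.0 RPKM, so the libraries were not free of transcripts of later stages. A pair of libraries stood apart: dKO 1 held 2635 RPKM of the beta-globin gene Beta-s, against at most 1.18 RPKM elsewhere, and dKO_Flt3ITD 4 held 721 RPKM of the granule enzyme gene Mpo, 105 RPKM of Elane and only 2.10 RPKM of Notch1. Differences from control of Dntt, Rag2, Xrcc6, Xrcc5, Xrcc4 and the called marker genes are given with and without both. Each library pools many cells, so fewer cells of a type and less RNA per cell cannot be told apart.

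Dntt and Xrcc6 were lower in every mutant library than in any control library, and no other gene of the 10 passed the test. In dKO against control 1 gene was called, Xrcc6, which fell, in a comparison where 1.02% of all genes tested were called. In dKO_Flt3ITD against control 2 were called, Dntt and Xrcc6, both lower, where 1.50% of genes were called. In dKO_Flt3ITD against dKO limma called none of the 10 and 0% of all genes. In that comparison 824 genes had an unadjusted p under 0.05, and voom on the recovered reads also called 0, with 835 at an unadjusted p under 0.05. In the comparisons with control voom called Dntt alone of the 10 in dKO, where it called 0.0468% of all genes, and Dntt and Xrcc6 in dKO_Flt3ITD, where it called 0.253%. Lig4 was too low to be tested. The median difference over the 9 tested genes was -0.17 in dKO against control, beside 0.0096 for all genes tested. It was -0.18 beside 0.0021 in dKO_Flt3ITD against control, and -0.42 beside 0.0042 in dKO_Flt3ITD against dKO. Libraries of dKO and control did not overlap for 3 of the 10 genes, Rag2 (higher), Dntt and Xrcc6 (lower), beside 6.30% of all genes tested. For dKO_Flt3ITD and control 3 genes did not overlap, Dntt, Xrcc6 and Xrcc5, all lower, beside 7.67%. For dKO_Flt3ITD and dKO the 1 such gene was Rag2, lower, beside 4.28%.

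**Figure D1:**
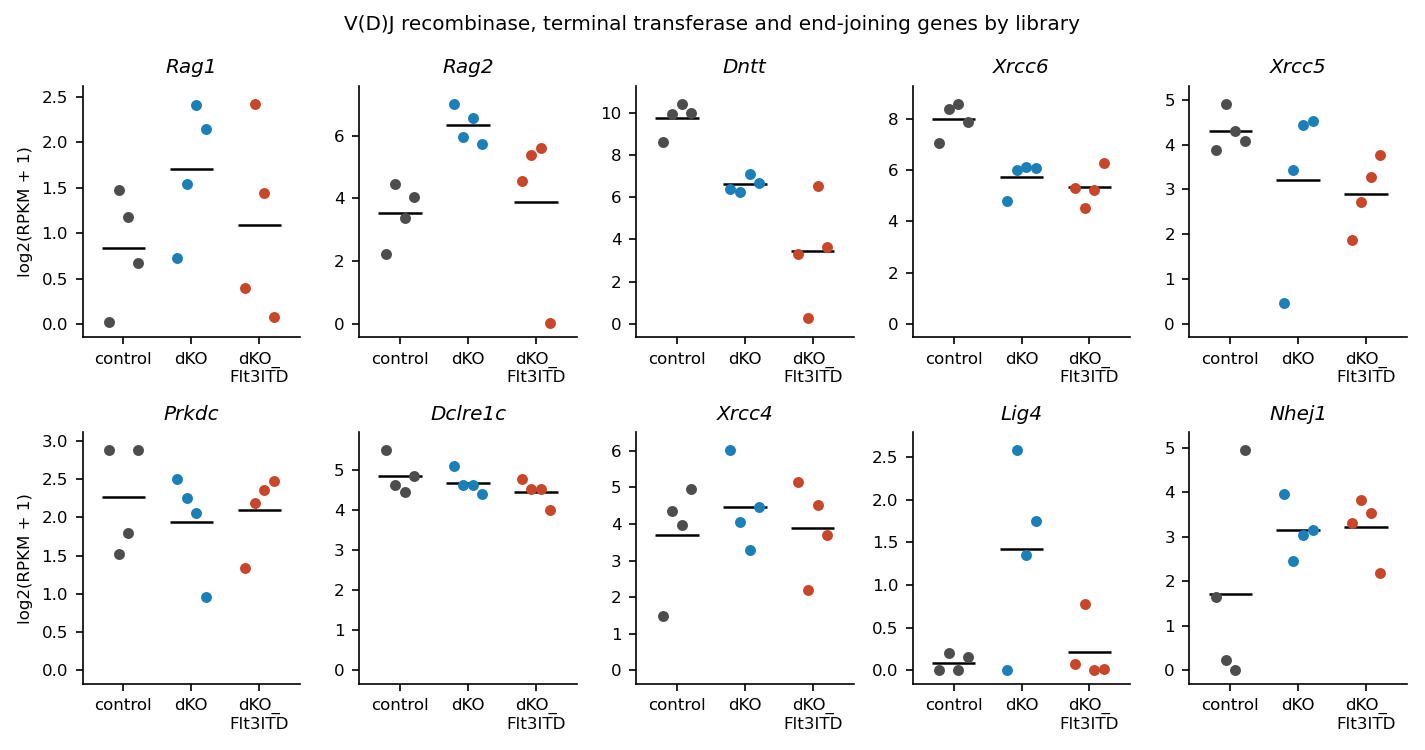
Level of each gene in each library, as log2(RPKM + 1) on the vertical axis, by group; points are libraries 1 to 4 from left to right within a group, bars are group means, and each panel has its own vertical scale. Dntt and Xrcc6 are lower in all dKO and dKO_Flt3ITD libraries than in any control library, Rag2 is highest in dKO, and the remaining genes overlap between dKO and control.

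Upstream sequences are shown for Dntt, Xrcc6 and Rag2, whose libraries separated between dKO and control, and for Rag1, the neighbour and partner of Rag2. They are shown because Runx1, one of the deleted genes, encodes a DNA-binding factor. They are the 250 bases before the RefSeq transcript start on GRCm38.p6, on the gene's own strand, 5′ to 3′. Dntt lies at chr19:41029025-41029274 (+), Xrcc6 at chr15:82016119-82016368 (+), Rag1 at chr2:101649533-101649782 (-) and Rag2 at chr2:101624462-101624711 (+). Capitals mark matches, on either strand, to the RUNX core in its forms TGTGGT and TGCGGT, the E-box CANNTG bound by E proteins, and the Ikaros core TGGGAA.

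Dntt: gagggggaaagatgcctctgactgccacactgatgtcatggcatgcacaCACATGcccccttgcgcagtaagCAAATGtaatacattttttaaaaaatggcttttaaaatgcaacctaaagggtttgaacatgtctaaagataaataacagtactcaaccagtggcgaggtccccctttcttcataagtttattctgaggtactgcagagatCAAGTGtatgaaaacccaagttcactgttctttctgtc

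Xrcc6: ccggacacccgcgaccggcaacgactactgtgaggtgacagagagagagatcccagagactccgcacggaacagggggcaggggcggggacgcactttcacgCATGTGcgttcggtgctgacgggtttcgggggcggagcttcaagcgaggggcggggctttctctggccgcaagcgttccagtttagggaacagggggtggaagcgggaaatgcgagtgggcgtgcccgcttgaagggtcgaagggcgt

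Rag1: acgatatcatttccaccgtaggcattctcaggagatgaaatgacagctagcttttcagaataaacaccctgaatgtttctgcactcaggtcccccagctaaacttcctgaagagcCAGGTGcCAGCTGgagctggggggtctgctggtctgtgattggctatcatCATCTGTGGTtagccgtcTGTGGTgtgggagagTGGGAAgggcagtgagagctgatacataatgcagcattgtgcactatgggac

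Rag2: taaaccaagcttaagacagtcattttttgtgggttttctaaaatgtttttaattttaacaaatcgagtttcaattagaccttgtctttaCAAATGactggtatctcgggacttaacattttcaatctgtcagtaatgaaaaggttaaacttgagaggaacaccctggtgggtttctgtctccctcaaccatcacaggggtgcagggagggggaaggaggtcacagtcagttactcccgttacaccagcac

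The Dntt window held 3 E-boxes and neither a RUNX nor an Ikaros core. Xrcc6 held 1 E-box, and Rag2 held 1 upstream of its start. Upstream of its start Rag1 held 2 copies of TGTGGT, beginning 81 and 67 bases before it, with 3 E-boxes and 1 Ikaros core. The E-box CATCTG, beginning 85 bases before the start, shares bases with the first RUNX core. Over 32851 RefSeq windows of 300 bases, from 250 before to 50 after a start, 22.4% held either RUNX form, 25.6% the Ikaros core and 72.3% an E-box. Windows were found for 9 of the 10 genes, and Rag1 was the one among them with a RUNX core in either form. A match describes letters, not a bound site. The annotated Xrcc6 gene begins further upstream, at chr15:81987835, so this window lies inside its longest gene model.

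The recombinase genes were unequal in level in these progenitors. Rag2 was measured at 3.64, 20.9, 9.47 and 15.7 RPKM in control libraries 1 to 4, at 128.8, 61.3, 94.4 and 52.5 RPKM in dKO, and at 22.4, 40.6, 48.0 and 0.0121 RPKM in dKO_Flt3ITD. All 4 dKO libraries were above every control and every dKO_Flt3ITD library, and 3 of the 4 dKO_Flt3ITD libraries were above every control library. The exception, dKO_Flt3ITD 4, held 1 Rag2 read and is the library with the granule enzyme genes. Group means were 12.4 ± 7.50 (SD, n = 4), 84.2 ± 34.8 and 27.8 ± 21.4 RPKM, so the mean in dKO was 6.78 times that in control. The difference in dKO against control was 2.80 on the log2 scale (SE 0.90, limma adjusted p = 0.221) and did not pass the test. With only the 8 libraries of these groups in the fit, which takes all 4 dKO_Flt3ITD libraries out of the estimate of spread, the same difference had a limma adjusted p of 0.0113. Without dKO 1 and dKO_Flt3ITD 4 it was 2.56, with a limma adjusted p of 0.0261. In dKO_Flt3ITD against control the difference was 0.36 (limma adjusted p = 0.912), and without those libraries 1.65 (limma adjusted p = 0.117). In dKO_Flt3ITD against dKO it was -2.43 (SE 0.90, limma adjusted p = 0.529), and -0.91 without them (limma adjusted p = 0.636).

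Rag1, the partner that carries the catalytic site, was low in all groups. Its levels were 0.0166, 1.78, 1.26 and 0.597 RPKM in control, 0.655, 1.91, 4.31 and 3.43 RPKM in dKO, and 0.319, 4.38, 1.71 and 0.0556 RPKM in dKO_Flt3ITD, from 3 to 812 reads. All groups overlapped. The limma adjusted p was 0.767 in dKO against control, 0.907 in dKO_Flt3ITD against control and 0.854 in dKO_Flt3ITD against dKO. Rag2 exceeded Rag1 in all libraries but dKO_Flt3ITD 4, by between 7.51 and 196.5 times in the 10 libraries with more than 3 reads of both genes. Both genes are on chromosome 2, Rag2 at 101624718 to 101632529 on the plus strand and Rag1 at 101638282 to 101649501 on the minus strand, with their ends 5752 bases apart in GRCm38. Exonic bases given here and below are those of GENCODE M21, which may differ from the gene models behind the RPKM. B230118H07Rik overlaps both Rag genes, sharing 208 of 3424 exonic bases of Rag2 on the opposite strand and 80 of 6608 of Rag1 on the same strand. It was measured at 6.78 ± 3.58, 2.63 ± 0.96 and 9.63 ± 5.57 RPKM in control, dKO and dKO_Flt3ITD (SD, n = 4). The strand setting of the read counting was not given in the sources used here, so reads from shared bases cannot be told apart.

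Dntt, which adds the untemplated nucleotides, was the highest of the 10 genes per length in control. Its levels there were 389, 987, 1379 and 1029 RPKM. In dKO they were 82.0, 75.0, 137 and 102 RPKM, and in dKO_Flt3ITD 9.05, 0.201, 90.1 and 11.4 RPKM. Every control library was above every mutant library. Within dKO_Flt3ITD, library 3 lay in the dKO range and the other 3 lay below it, library 2 with only 8 Dntt reads. In dKO_Flt3ITD against control Dntt fell by 6.32 on the log2 scale (SE 0.84, limma adjusted p = 0.000564), from a mean of 946 ± 411 to 27.7 ± 41.9 RPKM (SD, n = 4), or 2.93% of the control mean. In dKO the mean was 99.0 ± 27.7 RPKM, 10.5% of control, and the difference of -3.14 (SE 0.84) had a limma adjusted p of 0.0982, which did not pass. An exact two-sided permutation test of Dntt alone gave p = 0.0286 in each of these comparisons (0.0429 adjusted over 3 comparisons). That is the smallest value that 4 against 4 allows and the one that any groups without overlap give, so it restates the order of the libraries. In dKO_Flt3ITD against dKO the difference was -3.17 (SE 0.84, limma adjusted p = 0.283), with an exact permutation p of 0.0857. The limma adjusted p of dKO against control was 0.000643 with only the 8 compared libraries in the fit, 0.0148 with a pseudocount of 5, 0.0295 with array weights and 0.028 with voom, so the setting decides this call. Without dKO 1 and dKO_Flt3ITD 4 the differences were -3.07 (limma adjusted p = 0.23) in dKO and -6.38 (limma adjusted p = 0.00245) in dKO_Flt3ITD, both against control. Without dKO_Flt3ITD 3 the difference between dKO_Flt3ITD and dKO was -4.20 with a limma adjusted p of 0.0361.

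**Figure D2:**
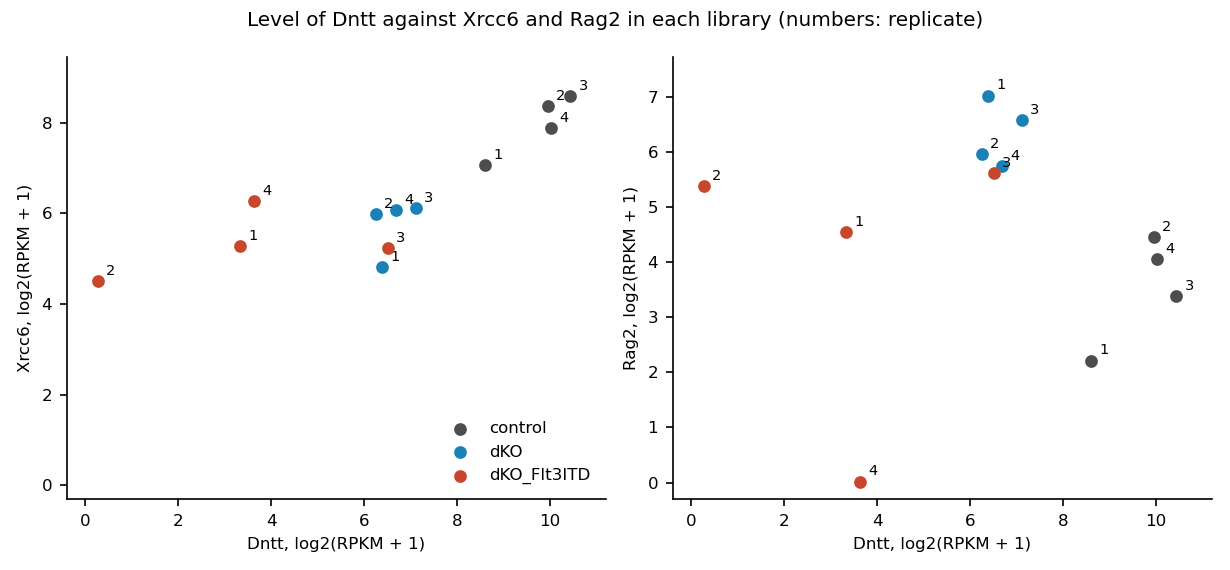
Level of Dntt (horizontal axis) against Xrcc6 (left) and Rag2 (right) in each of the 12 libraries, as log2(RPKM + 1), with colours for groups and numbers for replicates. Control libraries are highest for both Dntt and Xrcc6, while Rag2 is highest in dKO and near 0 in dKO_Flt3ITD 4.

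Xrcc6, which encodes the Ku70 subunit of the end-binding ring, fell in both mutant groups. Its levels were 132, 330, 384 and 233 RPKM in control, 27.0, 62.4, 68.0 and 66.1 RPKM in dKO, and 38.0, 21.7, 36.7 and 76.6 RPKM in dKO_Flt3ITD. The lowest control library was above the highest mutant library, and the mutant groups overlapped. Means were 270 ± 111 (SD, n = 4), 55.9 ± 19.4 and 43.2 ± 23.5 RPKM, so that dKO had 20.7% and dKO_Flt3ITD 16.0% of the control mean. Xrcc6 fell by 2.23 on the log2 scale in dKO (SE 0.43, limma adjusted p = 0.016) and fell by 2.65 in dKO_Flt3ITD (SE 0.43, limma adjusted p = 0.00319). Between dKO_Flt3ITD and dKO the difference was -0.42 with a 95% interval from -1.33 to 0.49 (limma adjusted p = 0.877). In dKO against control the limma adjusted p was 0.056 without control 2, 0.0605 without control 3, 0.0556 without dKO 1 and 0.0525 with voom. Without dKO 1 and dKO_Flt3ITD 4 together the differences from control were -1.918 (limma adjusted p = 0.0243) in dKO and -2.965 (limma adjusted p = 0.000833) in dKO_Flt3ITD. In dKO_Flt3ITD against control the call held in 22 of 22 alternatives, with adjusted p between 0.000292 and 0.0178. Xrcc6 spans chr15:81987835-82040085 (+) in GRCm38. It shares 344 of its 4476 exonic bases with Desi1 on the opposite strand, which was measured at 11.6 ± 6.61, 5.92 ± 2.31 and 6.14 ± 3.66 RPKM in the 3 groups (SD, n = 4).

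Xrcc5, the Ku80 subunit, was lower and more variable. Its levels were 13.7, 29.1, 18.6 and 15.9 RPKM in control, 0.375, 9.71, 20.8 and 22.2 RPKM in dKO, and 2.67, 5.56, 8.62 and 12.7 RPKM in dKO_Flt3ITD. All dKO_Flt3ITD libraries were below every control library, while in dKO libraries 3 and 4 lay within the control range, library 2 lay below it and library 1, with 16 reads, lay lowest. The differences from control were -1.08 in dKO (SE 0.73, limma adjusted p = 0.77) and -1.38 in dKO_Flt3ITD (SE 0.73, limma adjusted p = 0.428). Without dKO 1 and dKO_Flt3ITD 4 they were -0.16 (limma adjusted p = 0.991) and -1.67 (limma adjusted p = 0.103). The proteins pair in the ring, and the ratio of their transcripts per length was 9.66, 11.4, 20.6 and 14.7 in control, Xrcc6 over Xrcc5. In dKO it was 72.1, 6.43, 3.27 and 2.98, and in dKO_Flt3ITD 14.2, 3.89, 4.26 and 6.05. Outside dKO 1 and dKO_Flt3ITD 1, all mutant libraries had a lower ratio than every control library. These ratios were not tested.

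Prkdc and Dclre1c, whose products open the hairpin ends, passed the test in no comparison. Prkdc, the DNA-PK catalytic subunit, was at 4.26 ± 2.43, 3.14 ± 1.59 and 3.44 ± 1.33 RPKM in control, dKO and dKO_Flt3ITD (SD, n = 4). Its differences from control were -0.32 (95% interval -1.44 to 0.80, limma adjusted p = 0.945) and -0.18 (-1.30 to 0.94, limma adjusted p = 0.933). Dclre1c, which encodes the Artemis nuclease, had the smallest SE of the 9 tested genes (0.36), at 29.3 ± 10.4, 25.3 ± 5.67 and 21.3 ± 4.71 RPKM. Its library values ran from 15.0 RPKM in dKO_Flt3ITD 4 to 44.3 RPKM in control 1. Its differences from control were -0.17 (95% interval -0.93 to 0.58, limma adjusted p = 0.96) and -0.41 (-1.16 to 0.35, limma adjusted p = 0.679). The intervals for Dclre1c leave out a change as large as that of Xrcc6. Dclre1c shares 357 of 9316 exonic bases with Suv39h2 on the opposite strand, which was under 4.83 RPKM in every library.

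The ligation genes Xrcc4, Lig4 and Nhej1 varied widely between libraries of 1 group. Xrcc4, the scaffold of the ligase, was at 1.79, 19.4, 14.8 and 29.9 RPKM in control, 63.7, 15.5, 8.75 and 21.2 RPKM in dKO, and 34.2, 3.57, 22.0 and 11.9 RPKM in dKO_Flt3ITD. Its groups overlapped, with differences from control of 0.76 in dKO (limma adjusted p = 0.876) and 0.20 in dKO_Flt3ITD (limma adjusted p = 0.95). Without dKO 1 and dKO_Flt3ITD 4 they were 0.24 (limma adjusted p = 0.991) and 0.26 (limma adjusted p = 0.918). Nhej1, the XLF factor that bridges ends, was at 2.14, 0.178, 0 and 29.9 RPKM in control, where 1 library supplied nearly all of the mean and the 0 allows up to 0.142 RPKM (3 reads). In dKO it was at 14.6, 4.50, 7.29 and 7.93 RPKM and in dKO_Flt3ITD at 8.98, 13.3, 10.7 and 3.56 RPKM, above 3 of the 4 control libraries in all 8. The differences were 1.45 (SE 0.84, limma adjusted p = 0.692) and 1.51 (SE 0.84, limma adjusted p = 0.454) against control. Over 22 alternatives the Nhej1 difference ran from 0.55 to 3.32 in dKO and from 0.60 to 3.38 in dKO_Flt3ITD. It was called in 0 of them, with a lowest limma adjusted p of 0.0702 in dKO and 0.0541 in dKO_Flt3ITD.

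Lig4, the DNA ligase dedicated to this pathway, was low in all libraries and near the detection limit in most libraries outside dKO. Control libraries held 0, 12, 0 and 14 Lig4 reads, dKO libraries 0, 309, 178 and 179, and dKO_Flt3ITD libraries 6, 54, 0 and 1. In RPKM dKO 2 to 4 were at 4.97, 1.55 and 2.36, and every other library was at or under 0.71. A count of 0 allows up to 3 reads, which is 0.0271 RPKM in control 1, 0.0295 in control 3, 0.044 in dKO 1 and 0.0298 in dKO_Flt3ITD 3. These limits cover counting error only, since amplified reads are not independent molecules. Lig4 was at 1 RPKM or more in 3 libraries, all of dKO, and was left out of the test by the filter.

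**Figure D3:**
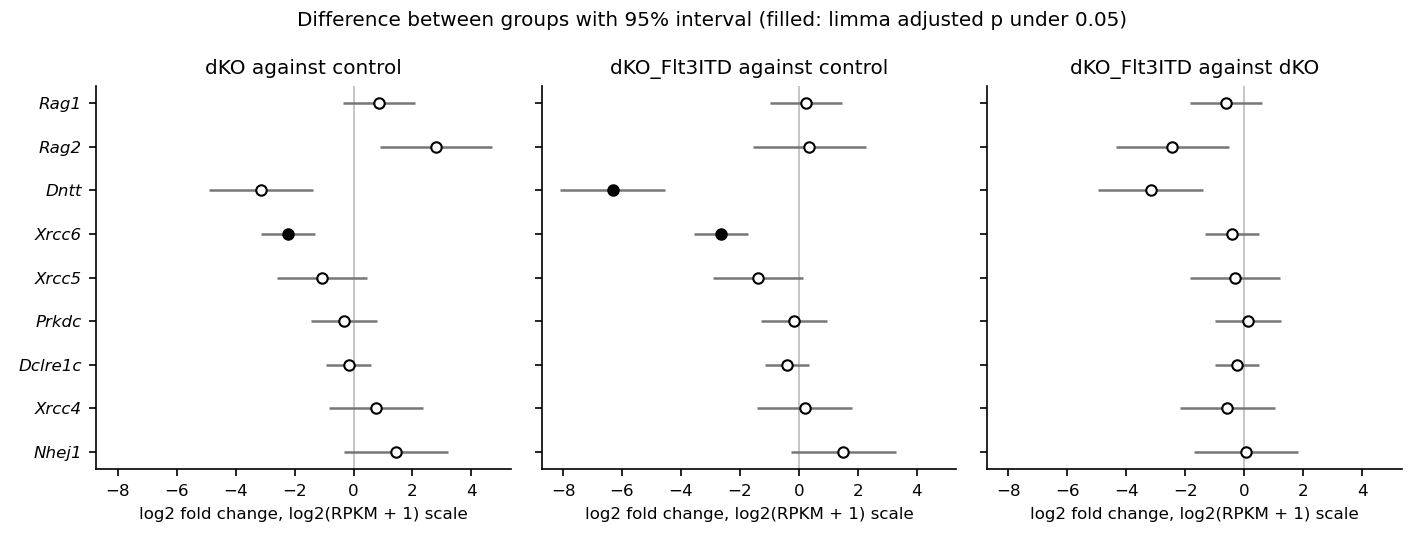
Difference between groups for the 9 tested genes on the log2(RPKM + 1) scale (horizontal axis) with 95% intervals, in the 3 comparisons; filled points have a limma adjusted p under 0.05. Xrcc6 is filled in both comparisons with control and Dntt in dKO_Flt3ITD against control, and no point is filled in dKO_Flt3ITD against dKO.

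The order of the levels changed between groups. In control Dntt was above Xrcc6 and Xrcc6 above Dclre1c with no overlap between libraries. The next neighbours, Dclre1c, Xrcc5, Xrcc4, Rag2, Nhej1 and Prkdc, each overlapped the next gene in the order, Prkdc lay above Rag1 without overlap, and Rag1 overlapped Lig4. In dKO the top of the order was Dntt, Rag2 and Xrcc6 with overlap between neighbours. In dKO_Flt3ITD it was Xrcc6, Rag2 and Dntt, again with overlap. Within a library, the ratio of Dntt to Rag2 was 47.1 to 146 in control and 0.637 to 1.95 in dKO. In dKO_Flt3ITD libraries 1 to 3 it was 0.403, 0.00496 and 1.88, and library 4 had too few Rag2 reads for a ratio.

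Other genes of the pathway were taken from 6 lists, of whose 77 symbols 57 were in the table. No gene of any list was called in any of the 3 comparisons. Of the other end-joining and break-processing factors 10 were tested, with a median difference of -0.17 in dKO and 0.33 in dKO_Flt3ITD against control. The lowest unadjusted p in dKO_Flt3ITD was that of Tdp1, an enzyme that cleans blocked DNA ends. Tdp1 was at 4.63, 0.653, 2.05 and 24.3 RPKM there, against 11.8 to 23.3 RPKM in control (difference -1.82, limma adjusted p = 0.22). Without dKO_Flt3ITD 4, which alone of its group was above every control library, its difference was -2.58 with a limma adjusted p of 0.021.

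Of the break-sensing genes and the 53BP1 pathway 14 were tested, with medians of 0.07 and -0.22. Mre11a, a nuclease of the complex that senses breaks, ran from 7.02 to 14.7 RPKM in control, from 14.8 to 25.0 in dKO and from 0.0733 to 11.3 in dKO_Flt3ITD. Its libraries did not overlap between dKO and either other group, and the differences of 0.87 in dKO and -1.27 in dKO_Flt3ITD against control had limma adjusted p of 0.778 and 0.371. The 7 genes of alternative end joining had medians of -0.08 and -0.25. Among them Lig1, the replicative ligase, had a mean of 33.1 RPKM in control and 21.4 in dKO_Flt3ITD (difference -0.64, limma adjusted p = 0.482). The 6 cofactors and partners of RAG had medians of 0.15 and 0.05. Hmgb2, a DNA-bending protein that aids RAG cutting, was at 295 RPKM in control and 234 RPKM in dKO_Flt3ITD (difference -0.35, limma adjusted p = 0.64).

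Of the transcription factors known to act on Rag or Dntt 15 were tested, with medians of 0.22 in dKO and 0.05 in dKO_Flt3ITD against control. Runx1 itself, whose floxed part cannot be seen in a level over the whole gene, was at 16.3 to 25.3 RPKM in control, 35.9 to 58.2 in dKO and 32.6 to 58.8 in dKO_Flt3ITD. The differences of 1.09 and 1.12 had limma adjusted p of 0.184 and 0.124, and 0.0382 and 0.0372 with array weights. Gfi1, a repressor, was not named by the rule and is given after its values were seen: its difference in dKO_Flt3ITD against control was 2.15 (limma adjusted p = 0.125), and 2.73 (limma adjusted p = 0.0329) without dKO_Flt3ITD 4. Of 18 antigen receptor and surrogate chain genes 5 were in the table and 3 were tested. Cd247, the CD3 zeta chain, was at 1.65 to 2.99 RPKM in control and at or under 0.676 RPKM in all 8 mutant libraries. The differences were -1.48 in dKO (limma adjusted p = 0.11) and -1.62 in dKO_Flt3ITD (limma adjusted p = 0.0576). They passed with no filter on low values (limma adjusted p = 0.0164 and 0.00657) and with array weights (0.0214 and 0.0288).

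**Figure D4:**
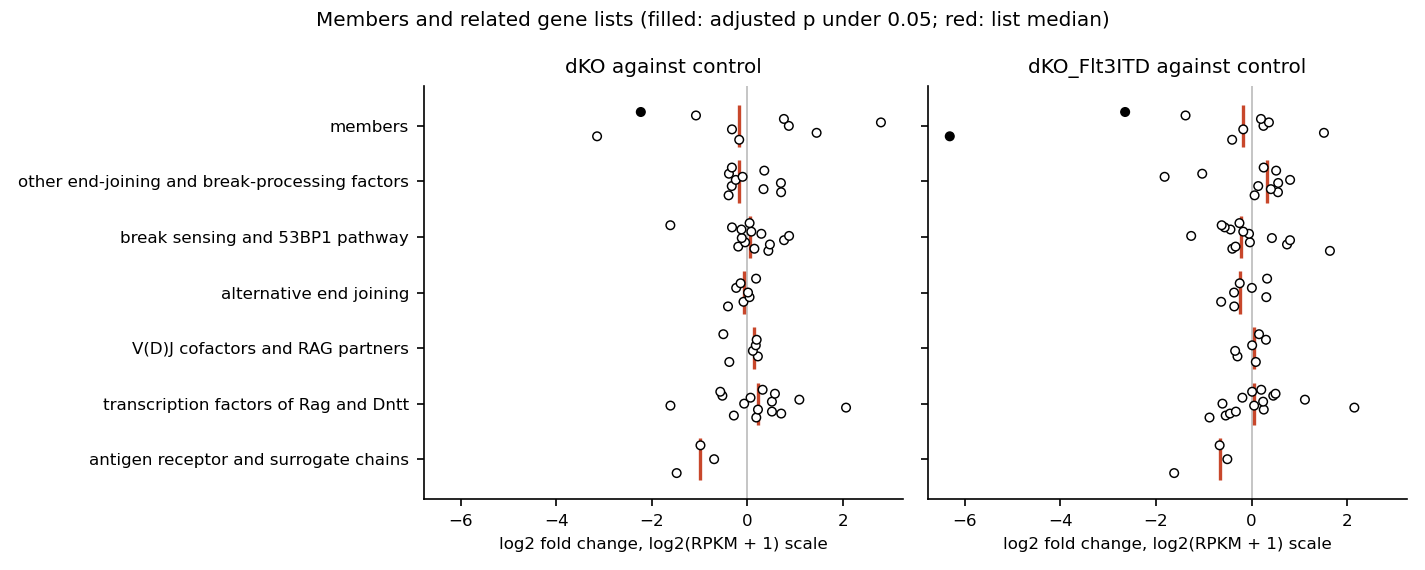
Differences from control on the log2(RPKM + 1) scale (horizontal axis) for the tested genes of the 10 described here (top row) and of 6 related lists, in dKO (left) and dKO_Flt3ITD (right); red lines are list medians and filled points have a limma adjusted p under 0.05. The only filled points are Xrcc6 in both panels and Dntt on the right.

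Some markers of other cells fell along with Dntt and Xrcc6, and others did not. Of the 10 plasmacytoid dendritic cell markers 8 were in the table and 6 were tested, and 2 were called, Cox6a2 and Ly6d, the latter also a gene of lymphoid progenitors. Cox6a2 was at 17.2 to 29.6 RPKM in control, at most 2.04 in dKO and 0 in dKO_Flt3ITD, and fell, with differences of -4.18 and -4.62 (limma adjusted p = 0.000176 and 7.3e-05). Ly6d fell too, with differences of -5.35 and -5.89 (limma adjusted p = 0.00203 and 0.000657). Without dKO 1 and dKO_Flt3ITD 4 both stayed called, Cox6a2 at -4.04 and -4.62 (limma adjusted p = 0.0019 and 0.000367) and Ly6d at -5.27 and -6.37 (limma adjusted p = 0.0066 and 0.000971). The defining marker of that cell type, Siglech, was at or under 0.247 RPKM in all 12 libraries. Of the 6 tested plasmacytoid markers, 3 had a positive and 3 a negative difference in each comparison with control. Bst2, given after its values were seen, differed by 0.13 in dKO and 1.04 in dKO_Flt3ITD (limma adjusted p = 0.982 and 0.334). The list summed to 184 to 414 RPKM in control, to 113 to 175 in dKO and to 108 to 538 in dKO_Flt3ITD, or 245 to 538 without library 4.

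All 9 early progenitor markers were tested, and 1, the chemokine receptor gene Ccr9, was called, lower in dKO_Flt3ITD than in control with a difference of -3.26 (limma adjusted p = 0.00543), and -3.25 (limma adjusted p = 0.00821) without dKO 1 and dKO_Flt3ITD 4. They summed to 679 to 949 RPKM in control, to 512 to 584 in dKO and to 439 to 558 in dKO_Flt3ITD. Flt3, given after its values were seen, was lower in every dKO library than in any control library (-1.45, limma adjusted p = 0.323). In dKO_Flt3ITD against control it differed by -1.52 (limma adjusted p = 0.198). That difference was -1.99 without dKO_Flt3ITD 4 (limma adjusted p = 0.0555) and with dKO 1 left out as well (limma adjusted p = 0.0341). Of the 10 granulocyte, monocyte and macrophage markers 9 were in the table, and 2 of the 8 tested rose in dKO_Flt3ITD. They were Ctsg (3.61, limma adjusted p = 0.0247) and Emr1 (3.50, limma adjusted p = 0.0481), while Elane was at 0 in all control libraries. Neither passed without dKO_Flt3ITD 4, where Ctsg differed by 3.08 (limma adjusted p = 0.0625) and Emr1 by 2.86 (limma adjusted p = 0.102). With dKO 1 left out as well, the differences were the same, and the limma adjusted p was 0.0651 for Ctsg and 0.0954 for Emr1. Mpo of the same list, given after its values were seen, went the other way in dKO_Flt3ITD against control. With all libraries it was not called (-1.50, limma adjusted p = 0.542). It was called lower without dKO_Flt3ITD 4 (-2.81, limma adjusted p = 0.0418) and with dKO 1 left out as well (-2.81, limma adjusted p = 0.0346). That list summed to 127 to 408 RPKM in control, 159 to 351 in dKO and 133 to 1464 in dKO_Flt3ITD, or 133 to 694 without library 4. The later thymocyte list (8 of 10 in the table) summed to 30.0 to 42.6, 18.2 to 63.8 and 12.3 to 49.5 RPKM, the B lineage list (4 of 10) to 59.6 to 98.2, 87.8 to 151 and 55.5 to 105 RPKM, and the natural killer list (4 of 9) to 796 to 1697, 561 to 1841 and 232 to 1482 RPKM. No gene of those lists or of the stromal list was called, and no erythroid gene passed the filter. Their genes with the smallest p in dKO_Flt3ITD against control were Cd4 (1.22, limma adjusted p = 0.408), Cd79b (0.09, 0.949), Nkg7 (-1.13, 0.302) and Pdgfrb (-0.21, 0.901). The natural killer receptor gene Klrd1, named after its values were seen, was at 15.9 to 70.5 RPKM in control and 0 to 12.2 RPKM in dKO, without overlap (-3.19, limma adjusted p = 0.156), and overlapped control in dKO_Flt3ITD. The part of any of these cell types in the levels of Dntt, Xrcc6 and Rag2 was not tested.

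The genes whose levels ran most like those of Dntt over the 12 libraries, among 7797 ranked by Pearson correlation of log2(RPKM + 1), were Srpk2 (r = 0.914), Tpm4 (0.910), Ezh2 (0.893), Cnot6 (0.872) and Clcc1 (0.862). Srpk2 encodes a kinase of splicing factors, Tpm4 a tropomyosin and Cnot6 a subunit that shortens messenger RNA tails. With group means removed the correlations were 0.683, 0.693, 0.578, 0.333 and 0.599. These are descriptions, since the libraries fall into groups and share depth and amplification. Ezh2, a deleted gene of the design, was at 39.8 ± 5.83, 22.6 ± 5.88 and 16.4 ± 5.59 RPKM in control, dKO and dKO_Flt3ITD (SD, n = 4). Xrcc6 ranked 14 by the same measure (r = 0.831, and 0.460 with group means removed), and Rag2 ranked 4421 (r = -0.04).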

How the data were processed

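Full-length cDNA was amplified (SMARTer) from 100 sorted cells per library, per the labels' protocols. Tools named in the submitters' processing notes are HTSeq 0.5.4p5, SAMtools 0.1.19 and TopHat2 2.0.10, with build mm10. The authors deposited RPKM for 13016 genes in 12 libraries; the total they divided by and the rule behind the gene choice were not stated. Steps between low RPKM values gave whole reads, within 0.001, for 100% of genes.

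limma 3.58.1 in R 4.3.3 was fitted with an intensity trend on log2(RPKM + 1), with all 12 libraries and 9 residual degrees of freedom. Genes needed at least 1 RPKM in at least 4 libraries, and p was adjusted by Benjamini-Hochberg at 0.05. Dntt also had an exact permutation test. Alternatives were other pseudocounts, filters, scalings, weights and library subsets, a replicate block, and voom on the recovered reads. Libraries of a group differed by 107 to 595 in chi-square per degree of freedom, so none was a copy. The script was tested on simulated data. Positions and exonic bases are from GENCODE M21, whose gene models may differ from those behind the RPKM, and sequences are from RefSeq (GRCm38.p6).

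The genes, lists and tests were chosen with earlier results of these data known. Named are the 10 genes, per list up to 3 called genes or else the 1 with the smallest p in dKO_Flt3ITD against control, and the 5 genes most like Dntt among genes with a group mean of at least 5 RPKM.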

Additional observations from a re-analysis of the deposited data

Results flagged for a closer look

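In 4 of 30 groups checked (10 genes in 3 groups of 4 libraries) 1 library lay far from the other 3 in RPKM. The rule flags about 1 in 20 only for normally distributed values, and RPKM values can be skewed. The count of flags therefore cannot be read against that rate. The rule was not applied on the log2 scale of the tests, where a high library stands out less. Dntt in dKO_Flt3ITD 3 was at 90.1 RPKM, against 0.201 to 11.4 RPKM in the other 3 libraries of the group. Xrcc6 in dKO 1, the library with beta-globin, was at 27.0 RPKM, against 62.4 to 68.0 RPKM. Lig4 in dKO_Flt3ITD 2 was at 0.71 RPKM, from 54 reads, against at most 0.054 RPKM. Nhej1 in control 4 was at 29.9 RPKM, against 0 to 2.14 RPKM.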

How the results depend on the processing

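Dntt and Xrcc6 were called lower in dKO_Flt3ITD against control in 22 of 22 alternatives each, and Xrcc6 in dKO against control in 18 of 22. Rescaling each library to the same RPKM sum moved the median of all genes by -0.115, -0.207 and -0.097, and no called gene among the 10 changed direction. The cause of the changes below was not tested.

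In dKO against control the number of the 10 genes called was 1, 2 with a pseudocount of 5, 2 with array weights, 3 with only the 8 compared libraries and 2 without dKO 1 and dKO_Flt3ITD 4 together, which was chosen after seeing the data. Leaving out 1 library gave 0 to 1. It was 0 without control 2, control 3 or dKO 1. In dKO_Flt3ITD against dKO leaving out 1 library gave 0 to 1, with Dntt called without dKO_Flt3ITD 3. Dntt in dKO against control passed with a pseudocount of 5 (-3.09), array weights (-3.29), the 8 compared libraries (-3.14) and voom (-3.21). Leaving out 1 library gave -3.53 to -2.92 there, -7.34 to -5.26 in dKO_Flt3ITD against control and -4.20 to -2.12 in dKO_Flt3ITD against dKO. Xrcc6 in dKO against control missed the threshold with voom (-2.32), and ran from -2.54 to -1.92 without 1 library. The count of list genes called moved from 0 to 1 for the transcription factors with array weights (both comparisons with control) and, in dKO_Flt3ITD, without dKO 1 and dKO_Flt3ITD 4 (0 to 1 without 1 library). It moved to 1 for the antigen receptor chains with no filter or array weights (both comparisons with control) and, in dKO_Flt3ITD, with rescaling or no trend. For the other end-joining factors in dKO_Flt3ITD it moved to 1 without dKO 1 and dKO_Flt3ITD 4 (0 to 1 without 1 library). Over all genes 109, 160 and 0 were called in the 3 comparisons, and 5, 27 and 0 with voom. The counts were 64, 91 and 1 with no filter and 210 in dKO against control with array weights. They were 45, 105 and 1 without control 1, dKO 1 and dKO_Flt3ITD 1. Leaving out 1 library gave 58 to 95, 94 to 187 and 0 to 6, and the other settings gave at most 5 in dKO_Flt3ITD against dKO.

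Reversed signs were all of uncalled differences. Without control 1, dKO 1 and dKO_Flt3ITD 1, Xrcc4 was -0.49 in dKO, and in dKO_Flt3ITD against control Rag2 was -0.30, Xrcc4 -0.96 and Prkdc 0.28. In that comparison Rag2 was -0.32 with a pseudocount of 0.1, -0.92 with voom and -1.03 on recovered reads without weights, the latter added after seeing the data. Xrcc4 was -0.032 after rescaling and -0.44 with array weights, and Prkdc 0.20 with array weights. In dKO_Flt3ITD against dKO, Xrcc4 was 0.016 and Dclre1c 0.050 without dKO 1 and dKO_Flt3ITD 4, and Nhej1 -0.039 after rescaling and -0.0056 with voom. Without 1 library the ranges that crossed 0 were, in dKO against control, Prkdc -0.57 to 0.0074 and Dclre1c -0.31 to 0.043. In dKO_Flt3ITD against control they were Rag1 -0.20 to 0.58, Rag2 -0.21 to 1.65, Xrcc4 -0.54 to 0.76 and Prkdc -0.43 to 0.073. In dKO_Flt3ITD against dKO they were Xrcc5 -1.23 to 0.13, Prkdc -0.18 to 0.39 and Nhej1 -0.17 to 0.41.

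Libraries with the same replicate number did not visibly deviate together (r from -0.15 to 0.13, and 8 of 24 best matches fell on the own number). This check cannot settle whether the numbers pair the libraries, since a weak pairing could stay hidden in their spread. The labels do not say whether libraries of the same number share a source. With a replicate block the calls of Dntt and Xrcc6 were as without it. Dntt was -3.14 in dKO (limma adjusted p = 0.0612), -6.32 in dKO_Flt3ITD against control and -3.17 against dKO, and Xrcc6 -2.23 in dKO. The block gave 85, 116 and 0 genes called over all genes.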
